A study of Oryzias latipes with 2 samples.

Results

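Semaphorins, plexins, neuropilins, ephrins and Eph receptors were read across the cell classes of adult medaka (Oryzias latipes) skin and scales. Members were chosen with earlier results of these data known, by a rule that read symbols alone. The rule took sema or nrp and a digit, plxn, eph with A or B and a digit, or efn with A or B. It ignored capitals. Of 23601 features, 49 were taken this way, namely 23 semaphorins, 5 plexins, 3 neuropilins, 7 ephrins and 11 Eph receptors, and 1 further match is not analysed here. The fish were adult males and females of the HdrR strain, labelled WT with the Southern phenotype, and no treatment or mutation separates the samples. Skin and scale cells were freed with the enzyme mix TrypLE, and the design text states a sort for GFP and mCherry signals that enriched pigment cells. What drives these signals is not given in the sources used here. Both libraries carry the same labels, so they are 1 group of 2 libraries, called run 1 and run 2, and every comparison below is between cell classes inside them. Whether different fish went into each run is not labelled. The p-values measure only how far differences between classes varied between these runs, which may not be a spread between fish.

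Semaphorins are secreted or membrane-bound guidance ligands that act on cells carrying plexins, and the secreted class 3 members mostly reach plexins through the co-receptors called neuropilins. Ephrins are tethered to the cell surface, by a lipid anchor in the A class and by a transmembrane stretch in the B class, and they meet Eph receptor tyrosine kinases on the neighbouring cell, so that both cells can receive a signal. The systems guide axons and migrating neural crest cells, from which the pigment cells of fish skin come, and they set boundaries between cell layers in epithelia.

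Classes were set by marker genes, none of which is a member. Leucophores, the white pigment cells of medaka, numbered 17 cells in run 1 and 197 in run 2. Xanthophores, the yellow pigment cells, numbered 1946 and 2, iridophores, the reflecting cells, 23 and 0, and melanophores, the black cells, 2 and 8. The other classes were T cells (460 and 37), fibroblasts (145 and 14) and keratinocytes (829 and 151), while 902 and 144 cells passed no gate and 23 and 3 passed several. The runs held 4347 and 556 analysed cells and shared 0 barcodes. Xanthophores and iridophores could be read in run 1 only and melanophores in run 2 only, so no test was possible for these 3 classes.

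UMIs, each standing for 1 captured transcript 3′ end, were summed over the cells of a class within a run and scaled to 1000000 UMIs of the sum (CPM). Where 2 values follow a class name, the first is run 1 and the second run 2. A count of 3 UMIs is taken here as the most that a count of 0 allows, which is about the 1-sided 95% limit. It corresponds to 21.5 and 1.19 CPM in leucophores, 0.310 in xanthophores, 56.8 in iridophores, 64.0 in melanophores, 2.12 and 18.6 in T cells, 6.56 and 50.7 in fibroblasts, and 0.345 and 1.07 in keratinocytes. The 2-sided intervals given below reach higher for a count of 0. These floors and intervals cover counting error only. A fold given below as "at least" sets the counted class against 3 UMIs in a class that held 0, with the UMIs of both runs added first. The runs weigh unequally in it, since leucophores held 139552 and 2512964 UMIs and T cells 1412969 and 161357. Such a fold can therefore exceed what either run gives alone. It leaves out the counting error of the counted class, so it is not a lower confidence limit, which would lie lower. The fibroblast sum of run 2 held 59123 UMIs, against 456984 in run 1, so most members stood near their floor there. CPM of 3′ ends does not depend on transcript length.

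Each class held its own markers, which follows from the gates, since these read UMIs of genes on the same lists. The sum of a class's own list is therefore no check of its identity. The leucophore list summed to 2544 and 2805 CPM in leucophores, the xanthophore list to 3557 CPM in xanthophores, the iridophore list to 19580 CPM in iridophores and the melanophore list to 15648 CPM in melanophores. T cell, fibroblast and keratinocyte lists summed to 2178 and 1667, 20972 and 18301, and 63536 and 49390 CPM in their classes. Markers of other classes were present in places. Iridophores also held 1307 CPM of the leucophore list, all of it slc23a4, 1060 CPM of the xanthophore list, led by sox5 at 795 CPM, 2992 CPM of the keratinocyte list, led by krt8 at 2670 CPM, and 1004 CPM of the fibroblast list, led by COL6A3 at 341 CPM. Their part in the iridophore values was not tested. Fibroblasts held 5639 and 4042 CPM of the keratinocyte list, led by krt8 at 3232 CPM in run 1, 186 and 237 CPM of the endothelial list, and 5565 and 50.7 CPM of the osteoblast list, led by COL10A1 at 5136 CPM in run 1. They also held 1516 and 1066 CPM of the macrophage list, all of it cd74a, and 492 and 0 CPM of the neutrophil list. The part of these lists in the fibroblast values was not tested. T cells held 1369 and 1277 CPM of the macrophage list, led by cd74a. Leucophores held 616 and 581 CPM of the melanophore list, led by MLANA. Xanthophores held 1440 CPM of the keratinocyte list, led by krt8, and 1408 CPM of the Schwann or neural list, led by sox10. Melanophores held 1494 CPM of the keratinocyte list, led by krt8. The part of these markers in the values of those classes was not tested. In run 1, 128 of 460 T cells lay within 1 UMI above the cut-off. Cells without a gate that lay within 2 UMIs below the cut-off numbered 133 for T cells, 28 beside the 17 leucophores and 23 beside the 23 iridophores.

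The transmembrane semaphorin gene sema4c stood above 200 CPM in every pigment sum and at 2.65 and 6.42 CPM in keratinocytes, the keratinocytes carried ephrins with their Eph receptors, and T cells held little of either system. At least 50 CPM in every sum used was reached by 9 members in leucophores, 10 in xanthophores, 18 in iridophores, 13 in melanophores, 0 in T cells, 10 in fibroblasts and 8 in keratinocytes. Sums differ in depth, so 3 UMIs already passed 50 CPM in iridophores, melanophores and the fibroblasts of run 2.

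**Figure D1:**
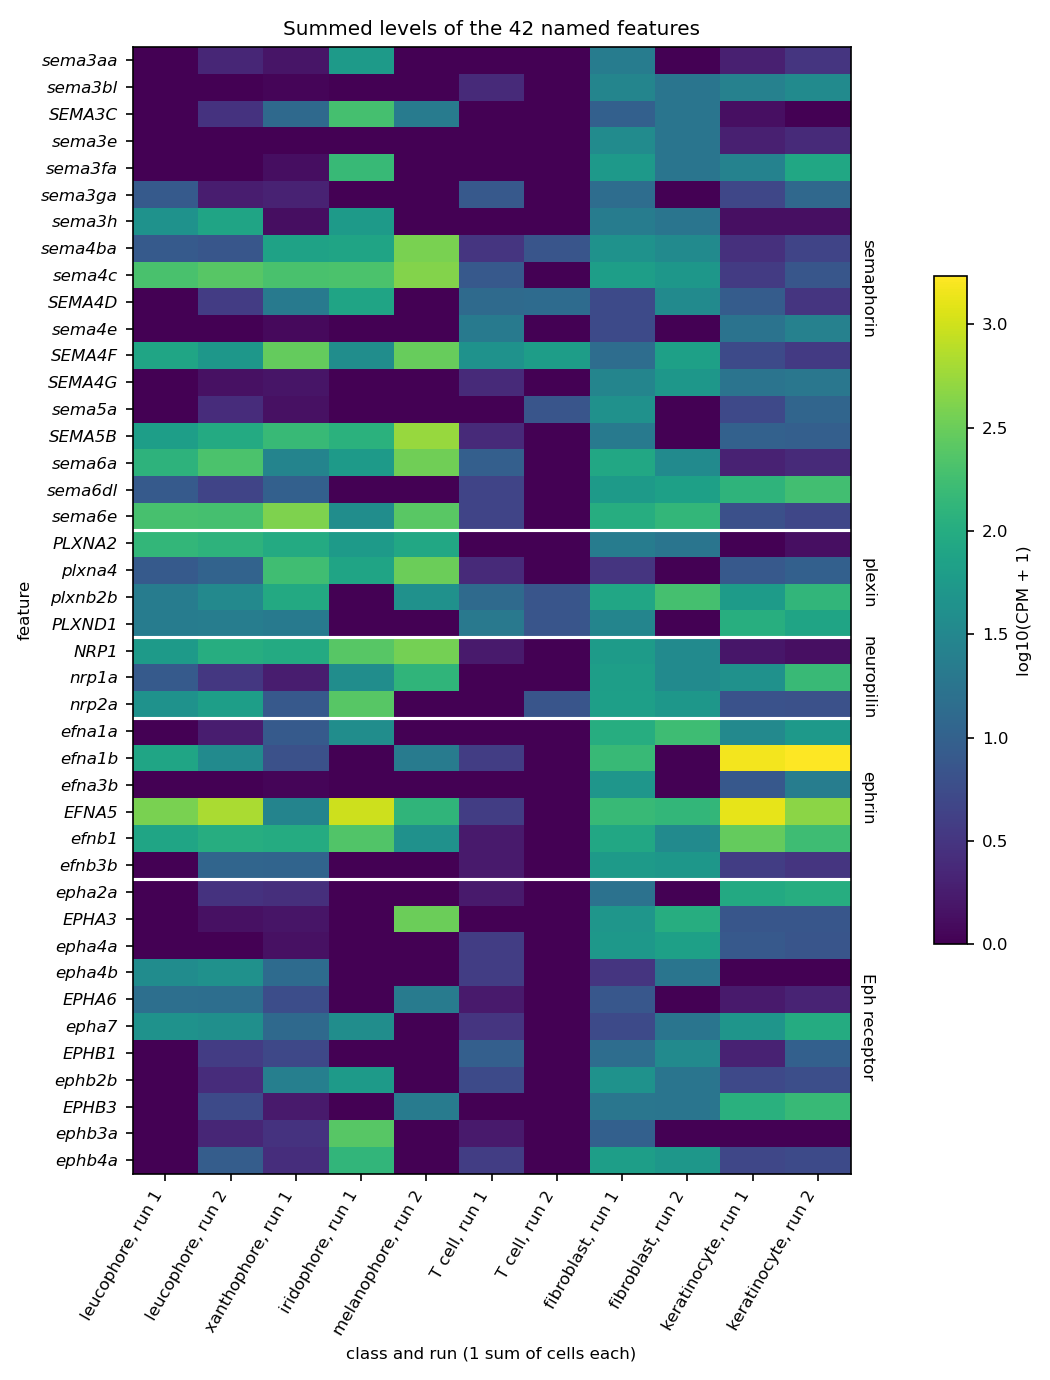
Colour gives log10 of CPM plus 1 for the 42 named members (rows, by family) in each sum of cells (columns, class and run). The brightest cells are efna1b in keratinocytes, at 1488 and 1702 CPM, and the T cell columns are dark for most rows.

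Of the 49 members, 37 passed the filter on low counts and were tested between leucophores, T cells, fibroblasts and keratinocytes, with edgeR's quasi-likelihood test on the 8 sums and the run as a block (3 residual degrees of freedom). Calls needed a change of at least 2-fold and a p under 0.05 after Benjamini-Hochberg adjustment over 9056 features. Log2 fold changes are given with a standard error (SE), taken as the change divided by the square root of the F statistic. In leucophores against keratinocytes, 11 members were called higher and 19 lower, beside 17.1% of all features higher and 22.7% lower. In leucophores against fibroblasts, 5 were higher and 16 lower, beside 7.92% and 12.4% of all features. In leucophores against T cells, 14 were higher and 2 lower, beside 16.4% and 11.8%. In T cells against fibroblasts, 0 were higher and 27 lower, beside 11.3% and 19.0%. In T cells against keratinocytes, 3 were higher and 18 lower, beside 15.6% and 24.8%. In fibroblasts against keratinocytes, 15 were higher and 9 lower, beside 13.9% and 18.2%.

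These comparisons share sums, so their counts are not independent. Members that passed the filter had to be well counted in some class, which favours a difference, so the counts describe the 37 and not all 49. The median log2 fold change of the tested members was -2.0 for leucophores against keratinocytes, against -0.14 over all features, and -3.83 for T cells against fibroblasts, against 0.10. With library totals in place of TMM scaling, the median over all features moved to 0.67 for leucophores against keratinocytes, 0.76 for fibroblasts against keratinocytes, 0.48 for leucophores against T cells and -0.49 for T cells against fibroblasts. Fitted fold changes against keratinocytes therefore lie below the ratios of the CPM values given here. The same change moved the share of higher calls among all called features from 43.0% to 65.1% for leucophores against keratinocytes, from 43.3% to 71.5% for fibroblasts against keratinocytes, from 38.6% to 51.1% for T cells against keratinocytes and from 37.3% to 23.1% for T cells against fibroblasts. No called member changed its direction under either other scaling.

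Among the transmembrane semaphorins, sema4c was high in every pigment class. In mammals its product binds plexin-B2. It had 201 and 246 CPM in leucophores, 202 in xanthophores, 208 in iridophores and 427 in melanophores, against 7.08 and 0 in T cells, 63.5 and 50.7 in fibroblasts and 2.65 and 6.42 in keratinocytes. Its log2 fold change in leucophores was 4.84 (SE 0.64, adjusted p = 9.5e-13) against keratinocytes, 1.99 (SE 0.64, adjusted p = 0.012) against fibroblasts and 4.60 (SE 0.75, adjusted p = 1.9e-08) against T cells. The leucophore sums were above all T cell, fibroblast and keratinocyte sums in both runs. The DESeq2 Wald test did not call the change against fibroblasts (adjusted p = 0.12).

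The class 6 gene sema6e, a fish semaphorin, was highest in xanthophores. It had 193 and 189 CPM in leucophores, 397 in xanthophores, 37.9 in iridophores and 256 in melanophores, against 3.54 and 0 in T cells, 103 and 135 in fibroblasts and 5.18 and 3.92 in keratinocytes. In leucophores it rose by 4.50 (SE 0.64, adjusted p = 2.4e-11) on the log2 scale against keratinocytes and by 5.50 (SE 0.85, adjusted p = 1.9e-09) against T cells, and it missed the threshold against fibroblasts, at 1.03 (SE 0.61, adjusted p = 0.27). Its relative sema6a, a ligand of plexin-A2 and plexin-A4 in mice, had 122 and 208 CPM in leucophores, 27.4 in xanthophores, 56.8 in iridophores and 342 in melanophores, against 8.49 and 0 in T cells, 85.3 and 33.8 in fibroblasts and 1.04 and 1.43 in keratinocytes. The change of sema6a in leucophores was 6.31 (SE 0.73, adjusted p = 2.5e-16) against keratinocytes and 4.15 (SE 0.77, adjusted p = 8.4e-07) against T cells. Leucophores and melanophores were the high classes for sema6a and xanthophores for sema6e.

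SEMA4F, a class 4 transmembrane semaphorin, was the member with the highest level in T cells. It had 78.8 and 50.1 CPM in leucophores, 291 in xanthophores, 37.9 in iridophores and 299 in melanophores, against 43.2 and 62.0 in T cells, 13.1 and 67.7 in fibroblasts and 4.37 and 2.50 in keratinocytes. Leucophores were above keratinocytes by 3.15 (SE 0.67, adjusted p = 1.5e-05) on the log2 scale, and T cells were above keratinocytes by 3.34 (SE 0.66, adjusted p = 3.5e-06). SEMA5B (ENSORLG00000009896), a class 5 semaphorin with thrombospondin repeats, had 64.5 and 93.1 CPM in leucophores, 150.3 in xanthophores, 114 in iridophores and 534 in melanophores, against 1.42 and 0 in T cells, 19.7 and 0 in fibroblasts and 9.21 and 8.56 in keratinocytes. It rose in leucophores by 2.35 (SE 0.63, adjusted p = 7.9e-04) on the log2 scale against keratinocytes, by 2.48 (SE 0.82, adjusted p = 0.016) against fibroblasts and by 5.49 (SE 1.04, adjusted p = 1.8e-06) against T cells. The change against fibroblasts was lost with the DESeq2 Wald test (adjusted p = 0.068) and without the fibroblasts holding endothelial or osteoblast markers (adjusted p = 0.1). The second feature with this symbol, ENSORLG00000006593, had 0 UMIs in all gated cells.

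sema4ba, another class 4 gene, stood lower in leucophores than in xanthophores, iridophores and melanophores. In iridophores it lay near the floor of 56.8 CPM. It had 7.17 and 6.37 CPM in leucophores, 71.9 in xanthophores, 75.7 in iridophores and 384 in melanophores, against 2.12 and 6.20 in T cells, 43.8 and 33.8 in fibroblasts and 1.84 and 3.57 in keratinocytes. Of the 18 UMIs in melanophores, 12 came from 1 cell. Fibroblasts were above keratinocytes by 3.05 (SE 0.80, adjusted p = 7.5e-04) on the log2 scale, and leucophores were below fibroblasts at -2.62 (SE 0.94, adjusted p = 0.03).

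**Figure D2:**
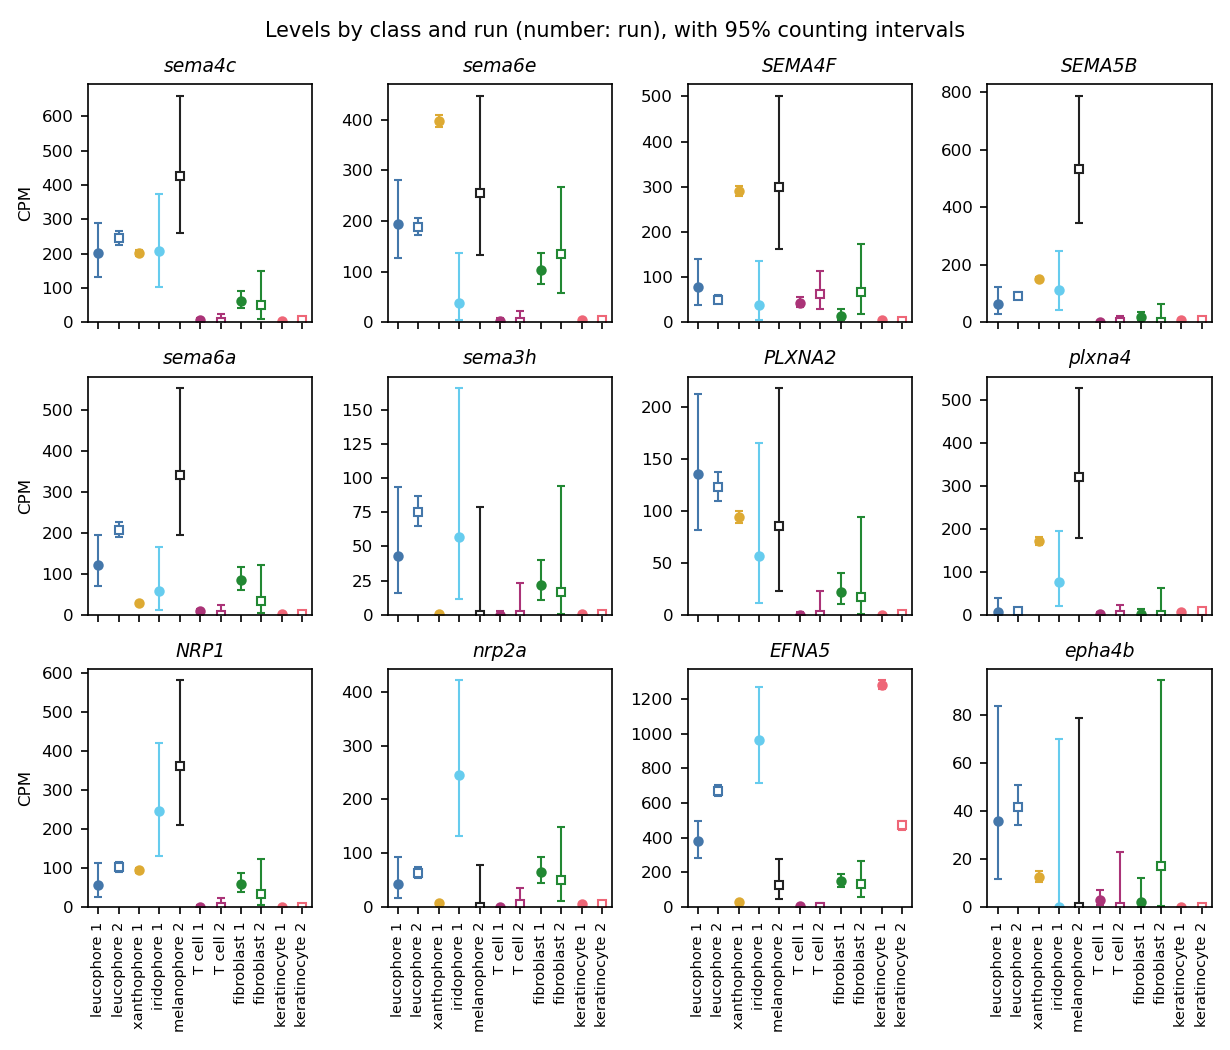
Each panel gives the CPM of 1 member in each sum, with exact 95% Poisson intervals, filled points for run 1 and open points for run 2. Keratinocyte points lie below 10 CPM in every panel but that of EFNA5, where they stand at 1284 and 471 CPM, and sema4c is above 200 CPM in every pigment sum shown.

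sema6dl, annotated by likeness to sema6d, was highest in keratinocytes and next in fibroblasts. It had 7.17 and 3.58 CPM in leucophores, 8.80 in xanthophores, 0 in iridophores and 0 in melanophores, against 3.54 and 0 in T cells, 56.9 and 67.7 in fibroblasts and 125 and 176 in keratinocytes. It fell in leucophores (-6.03, SE 0.78, adjusted p = 2.4e-13) and in T cells (-5.94, SE 0.81, adjusted p = 5.1e-12) against keratinocytes. SEMA4D, known in mammals as a T cell semaphorin that binds plexin-B1, had 0 and 2.79 CPM in leucophores, 20.6 in xanthophores, 75.7 in iridophores and 0 in melanophores, against 12 and 12.4 in T cells, 4.38 and 33.8 in fibroblasts and 7.71 and 2.14 in keratinocytes. In T cells its change against keratinocytes was not called, at 0.76 (SE 0.76, adjusted p = 0.45), and 36 of its 67 UMIs in the keratinocytes of run 1 lay in 1 cell.

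SEMA4G (ENSORLG00000007299) and sema4e are class 4 genes too. SEMA4G had 0 and 0.398 CPM in leucophores, 0.517 in xanthophores and 0 in iridophores and melanophores, against 1.42 and 0 in T cells, 28.4 and 50.7 in fibroblasts and 16.7 and 17.8 in keratinocytes. Against keratinocytes SEMA4G (ENSORLG00000007299) fell in leucophores (-6.05, SE 1.17, adjusted p = 1.5e-06) and in T cells (-4.05, SE 1.06, adjusted p = 5.9e-04). sema4e had 0 UMIs in leucophores, iridophores and melanophores and 0.207 CPM in xanthophores, against 20.5 and 0 in T cells, 4.38 and 0 in fibroblasts and 15.9 and 25.3 in keratinocytes. Set against 3 UMIs over both runs, leucophores were at least 16.1-fold lower than keratinocytes. Against T cells the same pooled bound was 16.3-fold, but neither run alone shows a difference. A 0 in the leucophores of run 1 allows 21.5 CPM, above the 20.5 CPM of T cells there. In run 2 both classes held 0 UMIs. sema5a, a class 5 gene, was not tested between the classes and had 0 and 1.59 CPM in leucophores, 0.414 in xanthophores and 0 in iridophores and melanophores, against 0 and 6.20 in T cells, 41.6 and 0 in fibroblasts and 4.14 and 10.3 in keratinocytes.

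Levels of some secreted class 3 semaphorins also differed between pigment classes. sema3h, a fish gene of this class, had 43.0 and 75.6 CPM in leucophores, 0.310 in xanthophores, 56.8 in iridophores and 0 in melanophores, against 0 and 0 in T cells, 21.9 and 16.9 in fibroblasts and 0.345 and 0.357 in keratinocytes. Leucophores were above keratinocytes by 6.31 (SE 0.89, adjusted p = 1.8e-11) on the log2 scale and at least 38.8-fold above T cells, which held 0 UMIs. SEMA3C, whose product guides neural crest cells in the mouse heart, stood out in iridophores, with 0 and 1.99 CPM in leucophores, 11.9 in xanthophores, 189 in iridophores and 21.3 in melanophores, against 0 and 0 in T cells, 8.75 and 16.9 in fibroblasts and 0.345 and 0 in keratinocytes. Its 10 UMIs in iridophores came from 7 of the 23 cells.

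sema3fa, whose mammalian relative signals through neuropilin-2, was shared by iridophores, fibroblasts and keratinocytes. It had 0 and 0 CPM in leucophores, 0.310 in xanthophores, 151 in iridophores and 0 in melanophores, against 0 and 0 in T cells, 54.7 and 16.9 in fibroblasts and 25.9 and 82.4 in keratinocytes. Of its 8 UMIs in iridophores, 5 came from 1 cell. Leucophores were at least 35.1-fold lower than keratinocytes and at least 44.5-fold lower than fibroblasts, and T cells at least 20.8-fold lower than keratinocytes. sema3bl, annotated by likeness to sema3b, had 0 UMIs in leucophores, iridophores and melanophores and 0.103 CPM in xanthophores, against 1.42 and 0 in T cells, 28.4 and 16.9 in fibroblasts and 25.1 and 34.6 in keratinocytes. Both genes were thus at or near 0 in leucophores, xanthophores and T cells.

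sema3e, a direct ligand of plexin-D1 in mice, was highest in fibroblasts, with 0 UMIs in every pigment class and 0 and 0 CPM in T cells, against 35 and 16.9 in fibroblasts and 0.921 and 1.43 in keratinocytes. Fibroblasts were above keratinocytes by 3.71 (SE 0.94, adjusted p = 5.2e-04) on the log2 scale, a change that the DESeq2 Wald test did not call (adjusted p = 0.29). sema3aa, related to the axon repellent semaphorin 3A, had 0 and 1.19 CPM in leucophores, 0.517 in xanthophores, 56.8 in iridophores and 0 in melanophores, against 0 and 0 in T cells, 21.9 and 0 in fibroblasts and 0.921 and 2.14 in keratinocytes. Of its 10 UMIs in the fibroblasts of run 1, 8 came from 1 cell, and it was not tested. sema3ga had 7.17 and 0.796 CPM in leucophores, 1.03 in xanthophores and 0 in iridophores and melanophores, against 7.08 and 0 in T cells, 13.1 and 0 in fibroblasts and 3.91 and 11.4 in keratinocytes. It was called lower in leucophores than in keratinocytes (-3.34, SE 1.04, adjusted p = 0.0046), although the leucophores of run 1, with 1 UMI, lay above the keratinocytes of that run, and the DESeq2 Wald test did not call it (adjusted p = 0.21).

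Among the receptors, PLXNA2, a plexin of the A class that serves class 6 and, with neuropilins, class 3 semaphorins, was close to absent from T cells and keratinocytes. It had 136 and 123 CPM in leucophores, 94.2 in xanthophores, 56.8 in iridophores and 85.4 in melanophores, against 0 and 0 in T cells, 21.9 and 16.9 in fibroblasts and 0 and 0.357 in keratinocytes. Its change in leucophores was 8.88 (SE 0.95, adjusted p = 5.3e-19) against keratinocytes, where 1 UMI was counted in both runs together, and 2.71 (SE 0.77, adjusted p = 0.0036) against fibroblasts. Against T cells, which held 0 UMIs, leucophores were at least 64.9-fold higher. In the leucophores of run 1, 8 of 19 UMIs came from 1 cell.

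plxna4, the other A-class plexin with high values, stood lower in leucophores than in xanthophores, iridophores and melanophores. In iridophores it lay near the floor of 56.8 CPM. It had 7.17 and 9.55 CPM in leucophores, 172 in xanthophores, 75.7 in iridophores and 320.2 in melanophores, against 1.42 and 0 in T cells, 2.19 and 0 in fibroblasts and 7.02 and 8.92 in keratinocytes, and it did not pass the filter for the test. plxnb2b, related to the receptor of class 4 semaphorins plexin-B2, was broadly present, with 21.5 and 32.6 CPM in leucophores, 91.2 in xanthophores, 0 in iridophores and 42.7 in melanophores, against 12 and 6.20 in T cells, 81.0 and 186 in fibroblasts and 58.9 and 132 in keratinocytes. It fell in leucophores against keratinocytes (-2.61, SE 0.62, adjusted p = 1.4e-04) and in T cells against fibroblasts (-2.47, SE 0.70, adjusted p = 0.0022). PLXND1, the receptor of semaphorin 3E in mice, had 21.5 and 22.7 CPM in leucophores, 19.9 in xanthophores and 0 in iridophores and melanophores, against 19.1 and 6.20 in T cells, 28.4 and 0 in fibroblasts and 105 and 75.3 in keratinocytes. Its changes against keratinocytes were -2.64 (SE 0.61, adjusted p = 8.5e-05) in leucophores, -3.05 (SE 0.67, adjusted p = 3.5e-05) in T cells and -3.16 (SE 0.72, adjusted p = 8.5e-05) in fibroblasts.

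Levels of the neuropilin features differed between cell classes. NRP1 had 57.3 and 101 CPM in leucophores, 94.1 in xanthophores, 246 in iridophores and 363 in melanophores, against 0.708 and 0 in T cells, 59.1 and 33.8 in fibroblasts and 0.576 and 0.357 in keratinocytes. The second feature named for neuropilin-1, nrp1a, ran the other way in leucophores and xanthophores against keratinocytes. The fibroblasts of run 1 and the melanophores carried both features. nrp1a had 7.17 and 2.39 CPM in leucophores, 0.828 in xanthophores, 37.9 in iridophores and 128 in melanophores, against 0 and 0 in T cells, 63.5 and 33.8 in fibroblasts and 41.9 and 156 in keratinocytes. In leucophores against keratinocytes NRP1 was higher (6.38, SE 0.82, adjusted p = 1.9e-13) and nrp1a lower (-6.02, SE 0.86, adjusted p = 3.6e-11). The sequences of features with related names, such as NRP1 with nrp1a or EPHB3 with ephb3a, were not compared. Whether reads were misassigned between them was not tested. nrp2a, a co-receptor of class 3 semaphorins, had 43.0 and 62.9 CPM in leucophores, 6.93 in xanthophores, 246 in iridophores and 0 in melanophores, against 0 and 6.20 in T cells, 65.6 and 50.7 in fibroblasts and 5.53 and 5.35 in keratinocytes. It was higher in leucophores than in keratinocytes (2.46, SE 0.67, adjusted p = 8.6e-04) and than in T cells (5.64, SE 1.20, adjusted p = 2.4e-05).

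Among the ephrins, EFNA5 was high in leucophores, iridophores and keratinocytes and low in xanthophores. It had 379.8 and 671 CPM in leucophores, 27.6 in xanthophores, 966 in iridophores and 128 in melanophores, against 2.83 and 0 in T cells, 149 and 135 in fibroblasts and 1284 and 471 in keratinocytes. Leucophores were higher than fibroblasts (2.30, SE 0.55, adjusted p = 3.9e-04) and T cells (7.48, SE 0.80, adjusted p = 1.1e-18). They were called lower than keratinocytes (-1.40, SE 0.51, adjusted p = 0.019), but the runs went opposite ways, since the leucophores of run 2 lay above the keratinocytes of that run. That call was lost with library totals (adjusted p = 0.16) and with the DESeq2 Wald test (adjusted p = 0.18), so no direction is drawn between leucophores and keratinocytes.

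efna1b, related to the EphA2 ligand ephrin-A1, was the most abundant member of all in keratinocytes. It had 78.8 and 34.6 CPM in leucophores, 5.28 in xanthophores, 0 in iridophores and 21.3 in melanophores, against 2.83 and 0 in T cells, 151 and 0 in fibroblasts and 1488 and 1702 in keratinocytes. Its changes against keratinocytes were -5.94 (SE 0.59, adjusted p = 2.9e-22) in leucophores, -10.15 (SE 0.80, adjusted p = 5.8e-34) in T cells and -5.39 (SE 0.59, adjusted p = 9.4e-18) in fibroblasts. In leucophores the level was 5.30% and 2.03% of that in keratinocytes, while krt5, a keratinocyte keratin, was at 0.0473% and 0.0914% there. The gate limits keratinocyte marker UMIs in leucophores, so krt5 gives no free measure of carried-over RNA.

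The B-class ephrin efnb1 was above the floor in leucophores, xanthophores, iridophores and keratinocytes. In melanophores efnb1 lay under the floor of 64.0 CPM. It had 78.8 and 103 CPM in leucophores, 96.5 in xanthophores, 227 in iridophores and 42.7 in melanophores, against 0.708 and 0 in T cells, 85.3 and 33.8 in fibroblasts and 293 and 167 in keratinocytes. T cells were far below keratinocytes (-8.89, SE 1.01, adjusted p = 3.6e-17), and leucophores were lower than keratinocytes (-2.0, SE 0.55, adjusted p = 0.0011) and higher than T cells (6.89, SE 1.08, adjusted p = 4.1e-09). efna1a, the second ephrin-A1 gene, was highest in fibroblasts, with 0 and 0.796 CPM in leucophores, 7.24 in xanthophores, 37.9 in iridophores and 0 in melanophores, against 0 and 0 in T cells, 103 and 169 in fibroblasts and 32.3 and 52.8 in keratinocytes. Set against 3 UMIs, T cells were at least 58.0-fold lower than fibroblasts in efna1a.

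efnb3b, a B-class ephrin, and efna3b, an A-class one, were low in pigment cells. efnb3b had 0 and 10.3 CPM in leucophores, 9.94 in xanthophores and 0 in iridophores and melanophores, against 0.708 and 0 in T cells, 56.9 and 50.7 in fibroblasts and 2.88 and 2.14 in keratinocytes, and fibroblasts were above keratinocytes (3.32, SE 0.76, adjusted p = 1.0e-04). efna3b had 0 UMIs in leucophores, iridophores, melanophores and T cells and 0.103 CPM in xanthophores, against 48.1 and 0 in fibroblasts and 6.79 and 22.1 in keratinocytes. Its call in leucophores against keratinocytes, at least 9.31-fold lower, was lost with the DESeq2 Wald test (adjusted p = 0.26).

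Eph receptors were few in leucophores and xanthophores. No Eph receptor reached 50 CPM in every leucophore sum or in xanthophores. The clearest in leucophores was epha4b, an EphA4 gene whose receptor class binds A and some B ephrins, with 35.8 and 41.8 CPM in leucophores, 12.6 in xanthophores, 0 in iridophores and 0 in melanophores, against 2.83 and 0 in T cells, 2.19 and 16.9 in fibroblasts and 0 and 0 in keratinocytes. Keratinocytes held 0 UMIs, so leucophores were at least 159-fold higher. Against T cells the change was 3.26 (SE 1.07, adjusted p = 0.011) and against fibroblasts 3.18 (SE 1.19, adjusted p = 0.039), and the DESeq2 Wald test called neither (adjusted p = 0.075 and 0.27). epha4b was also called between fibroblasts and keratinocytes, on 2 UMIs against 0, for which no size is given. EPHA6 had 14.3 and 13.5 CPM in leucophores, 4.86 in xanthophores, 0 in iridophores and 21.3 in melanophores, against 0.708 and 0 in T cells, 6.56 and 0 in fibroblasts and 0.691 and 1.07 in keratinocytes. It was called higher in leucophores than in keratinocytes (3.14, SE 0.95, adjusted p = 0.0034) and T cells (3.80, SE 1.51, adjusted p = 0.044). Against T cells neither run alone shows a difference past the floors. The leucophores of run 1 lay under their floor of 21.5 CPM. In run 2 a 0 in T cells allows 18.6 CPM, above the 13.5 CPM of leucophores.

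epha7, a receptor of A ephrins, was the only other Eph gene above 30 CPM in both leucophore sums. It had 43.0 and 39.8 CPM in leucophores, 11.9 in xanthophores, 37.9 in iridophores and 0 in melanophores, against 2.12 and 0 in T cells, 4.38 and 16.9 in fibroblasts and 46.8 and 94.9 in keratinocytes. Leucophores were above T cells (3.56, SE 1.01, adjusted p = 0.0023) and below keratinocytes (-1.70, SE 0.62, adjusted p = 0.017), the last call being lost with library totals (adjusted p = 0.16) and with the DESeq2 Wald test (adjusted p = 0.11). Keratinocytes carried 2 further receptors at high levels. epha2a, related to EphA2, the main Eph receptor of mammalian epidermis, had 0 and 1.99 CPM in leucophores, 1.76 in xanthophores and 0 in iridophores and melanophores, against 0.708 and 0 in T cells, 15.3 and 0 in fibroblasts and 89.9 and 103 in keratinocytes. EPHB3, a receptor of B ephrins, had 0 and 4.38 CPM in leucophores, 0.724 in xanthophores, 0 in iridophores and 21.3 in melanophores, against 0 and 0 in T cells, 17.5 and 16.9 in fibroblasts and 112 and 148 in keratinocytes. In leucophores against keratinocytes epha2a fell by 6.43 and EPHB3 by 5.94 on the log2 scale (SE 0.86 and 0.79, adjusted p = 1.5e-12 and 9.3e-13).

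Iridophores held 2 receptors of the EphB class at over 100 CPM. ephb3a had 0 and 1.19 CPM in leucophores, 1.97 in xanthophores, 246 in iridophores and 0 in melanophores, against 0.708 and 0 in T cells, 8.75 and 0 in fibroblasts and 0 and 0 in keratinocytes. Its 13 UMIs in iridophores came from 10 of the 23 cells. ephb4a, related to EphB4, which marks veins in vertebrates, had 0 and 7.96 CPM in leucophores, 1.66 in xanthophores, 133 in iridophores and 0 in melanophores, against 2.83 and 0 in T cells, 63.5 and 50.7 in fibroblasts and 3.91 and 4.28 in keratinocytes. Both genes stood below 10 CPM in leucophores and xanthophores, and melanophores held 0 UMIs of them.

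Fibroblasts carried several Eph receptors at levels above those of T cells and keratinocytes. EPHA3, which binds ephrin-A5, had 0 and 0.398 CPM in leucophores, 0.517 in xanthophores, 0 in iridophores and 320.2 in melanophores, against 0 and 0 in T cells, 48.1 and 101 in fibroblasts and 6.22 and 6.42 in keratinocytes. epha4a, the second EphA4 gene, had 0 UMIs in leucophores, iridophores and melanophores and 0.414 CPM in xanthophores, against 2.83 and 0 in T cells, 52.5 and 67.7 in fibroblasts and 6.91 and 6.07 in keratinocytes. ephb2b, a receptor of B ephrins, had 0 and 1.59 CPM in leucophores, 23.5 in xanthophores, 56.8 in iridophores and 0 in melanophores, against 4.25 and 0 in T cells, 43.8 and 16.9 in fibroblasts and 4.14 and 5.0 in keratinocytes. Fibroblasts were above keratinocytes in EPHA3 (2.21, SE 0.71, adjusted p = 0.0081), epha4a (1.99, SE 0.73, adjusted p = 0.024), ephb4a (2.80, SE 0.74, adjusted p = 9.6e-04) and ephb2b (1.93, SE 0.79, adjusted p = 0.047). The DESeq2 Wald test did not call ephb2b (adjusted p = 0.19), and 18 of its 36 UMIs in the keratinocytes of run 1 lay in 1 cell. EPHB1, another receptor of B ephrins, had 0 and 2.79 CPM in leucophores, 4.04 in xanthophores and 0 in iridophores and melanophores, against 8.49 and 0 in T cells, 13.1 and 33.8 in fibroblasts and 1.04 and 8.92 in keratinocytes. It was called lower in leucophores than in T cells (-2.99, SE 1.14, adjusted p = 0.033), but the T cells of run 2 held 0 UMIs and the leucophores of that run 7, so the runs went opposite ways.

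**Figure D3:**
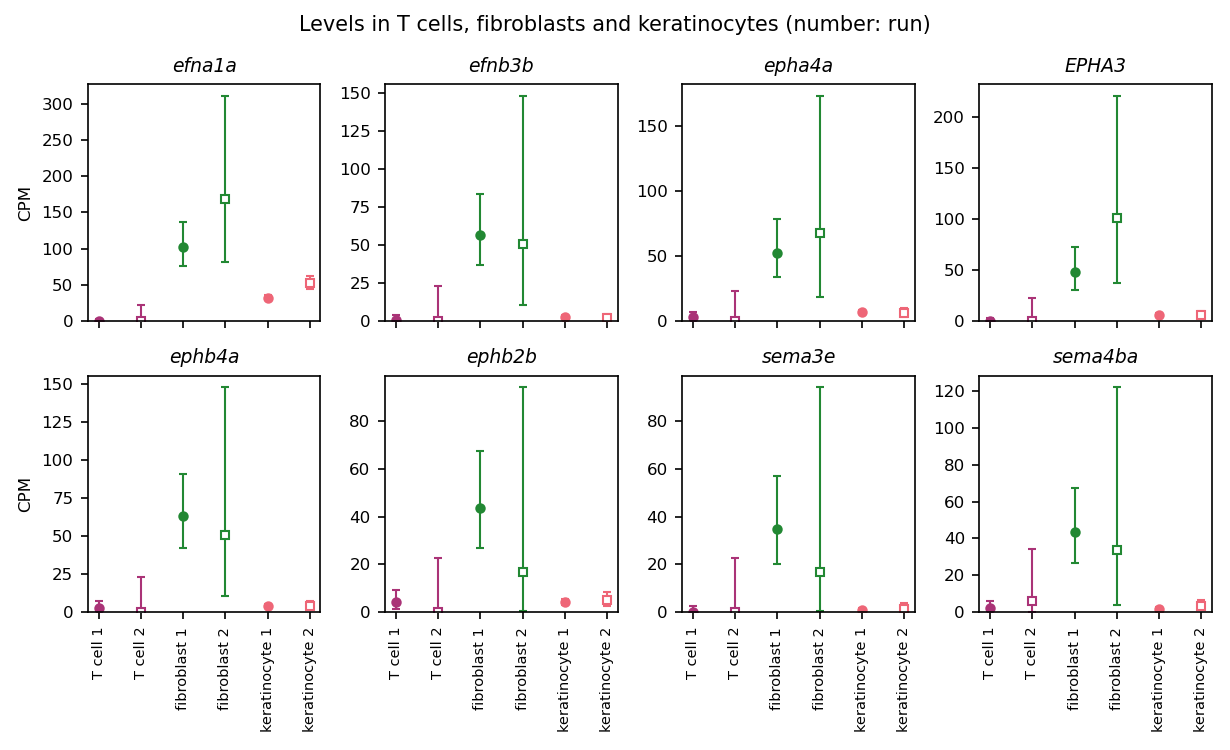
Each panel gives the CPM of 1 member in T cells, fibroblasts and keratinocytes, with exact 95% Poisson intervals, filled points for run 1 and open points for run 2. Fibroblast points are the highest in all 8 panels in both runs, with wide intervals in run 2, where the sum held 14 cells.

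In fibroblasts against keratinocytes the 15 higher members were 6 semaphorins, PLXNA2, 2 neuropilins, efnb3b and 5 Eph receptors. Those not yet given a change were sema6e (3.47, SE 0.65, adjusted p = 1.3e-06), sema3h (4.72, SE 1.03, adjusted p = 3.9e-05), sema6a (4.82, SE 0.77, adjusted p = 7.0e-09), sema4c (2.85, SE 0.70, adjusted p = 2.7e-04), PLXNA2 (6.17, SE 1.17, adjusted p = 1.6e-06), NRP1 (5.51, SE 0.86, adjusted p = 3.7e-09) and nrp2a (2.46, SE 0.69, adjusted p = 0.002). Of the 9 lower members, 3 were ephrins and 3 Eph receptors. EFNA5 (-3.70, SE 0.56, adjusted p = 8.9e-10), efnb1 (-2.83, SE 0.60, adjusted p = 2.4e-05), epha2a (-3.91, SE 0.78, adjusted p = 5.0e-06), EPHB3 (-3.80, SE 0.73, adjusted p = 1.8e-06) and epha7 (-4.27, SE 0.89, adjusted p = 1.3e-05) were lower in fibroblasts, as was sema6dl (-2.39, SE 0.62, adjusted p = 7.0e-04), which library totals did not call (adjusted p = 0.052). sema4e was lower too (-3.44, SE 1.1, adjusted p = 0.0074), a call that neither library totals nor the DESeq2 Wald test kept (adjusted p = 0.07 and 0.26).

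The fibroblast gate also let in cells with endothelial or osteoblast markers. Leaving these out, after the data had been seen, kept 116 and 9 fibroblasts, and members called against keratinocytes were then 13 higher and 10 lower. The count filter then passed 35 members between the classes, in place of 37. Of the 156 changes called over all replicated comparisons, 152 could be tested again. Among the calls that this clean-up ended were those of epha4b against keratinocytes and of epha2a in T cells against fibroblasts. In fibroblasts of run 1 the keratinocyte members efna1b, EFNA5, epha2a and EPHB3 stood at 10.1%, 11.6%, 17% and 15.6% of their keratinocyte level and krt5 at 0.253%. In run 2 the same members stood at 0%, 28.7%, 0% and 11.5% and krt5 at 0.313%. The gate limits keratinocyte marker UMIs in fibroblasts as well, so krt5 gives no free measure of carried-over RNA there. The part of keratinocyte, endothelial or osteoblast RNA in the fibroblast levels was not tested.

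T cells were low for most members. Against fibroblasts, the 27 lower members were 10 of 15 tested semaphorins, 2 of 3 plexins, 3 of 3 neuropilins, 6 of 6 ephrins and 6 of 10 Eph receptors. No member was called higher by edgeR or the DESeq2 Wald test, and 2 were higher at an unadjusted p under 0.05, namely sema4e (2.62, SE 1.17, adjusted p = 0.077) and SEMA4F (1.72, SE 0.80, adjusted p = 0.089). SEMA4F was called with looser gates (adjusted p = 0.039) and without the fibroblasts holding endothelial or osteoblast markers (adjusted p = 0.012). Among the lower members, log2 fold changes included -6.06 (SE 1.12, adjusted p = 9.9e-07) for efnb1, -5.19 (SE 0.81, adjusted p = 5.5e-09) for EFNA5, -4.77 (SE 0.81, adjusted p = 8.0e-08) for efna1b, -4.47 (SE 0.87, adjusted p = 3.9e-06) for sema6e and -5.56 (SE 1.20, adjusted p = 3.6e-05) for NRP1. Where T cells held 0 UMIs, they were at least 17.3-fold lower in sema3e, 31.5-fold in nrp1a, 22.4-fold in efna3b, 28.5-fold in EPHA3, 9.15-fold in EPHB3, 26.4-fold in sema3fa, 11.2-fold in PLXNA2 and 11.2-fold in sema3h. The others were efnb3b (-5.64, SE 1.24, adjusted p = 4.6e-05), nrp2a (-5.64, SE 1.20, adjusted p = 2.7e-05), SEMA4G (ENSORLG00000007299) (-3.96, SE 1.17, adjusted p = 0.0036), ephb4a (-3.90, SE 0.98, adjusted p = 5.0e-04), epha4a (-3.83, SE 1.00, adjusted p = 8.4e-04), sema3bl (-3.66, SE 1.18, adjusted p = 0.0088), epha2a (-3.58, SE 1.45, adjusted p = 0.045), sema6dl (-3.55, SE 0.89, adjusted p = 4.3e-04), sema4ba (-3.23, SE 1.00, adjusted p = 0.006), ephb2b (-2.73, SE 0.96, adjusted p = 0.018), sema6a (-2.66, SE 0.78, adjusted p = 0.0031) and sema4c (-2.61, SE 0.79, adjusted p = 0.0048). The DESeq2 Wald test called 21 of these lower, without efna3b, sema3fa, sema3e, ephb2b, sema3bl and epha2a.

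Against keratinocytes, SEMA4F, sema6a and epha4b were the 3 members higher in T cells. The change of sema6a was 2.16 (SE 0.87, adjusted p = 0.035), but the T cells of run 2 held 0 UMIs of it, and the DESeq2 Wald test did not call it (adjusted p = 0.21). For epha4b T cells held 4 UMIs, all in run 1, against 0 in keratinocytes. Among the 18 lower members were EFNA5 (-8.88, SE 0.80, adjusted p = 2.6e-26), epha7 (-5.26, SE 0.88, adjusted p = 2.7e-08), epha2a (-7.49, SE 1.05, adjusted p = 1.5e-11), sema3bl (-4.84, SE 1.03, adjusted p = 1.6e-05), plxnb2b (-3.21, SE 0.67, adjusted p = 9.2e-06) and SEMA5B (ENSORLG00000009896) (-3.13, SE 1.08, adjusted p = 0.012). With 0 UMIs in T cells, nrp1a was at least 36.5-fold, EPHB3 at least 63.4-fold, efna1a at least 19.6-fold, efna3b at least 5.53-fold and EPHA3 at least 3.29-fold lower. nrp2a was called lower (-3.18, SE 1.31, adjusted p = 0.039) on 0 and 1 UMIs in T cells, although the T cells of run 2, with that 1 UMI, lay above the keratinocytes of that run. The DESeq2 Wald test called neither nrp2a nor efna3b (adjusted p = 0.065 and 0.37).

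Of the 14 members higher in leucophores than in T cells, 5 were semaphorins, 2 neuropilins, 3 ephrins and 3 Eph receptors. Besides the members already given, NRP1 (6.43, SE 1.16, adjusted p = 4.5e-07) and efna1b (4.22, SE 0.83, adjusted p = 4.3e-06) were higher in leucophores. Neither sema4e nor EPHB1 was called lower, nor EPHA6 higher, by the DESeq2 Wald test.

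Against fibroblasts, leucophores were lower in SEMA4G (ENSORLG00000007299) (-5.96, SE 1.35, adjusted p = 1.3e-04), sema6dl (-3.65, SE 0.88, adjusted p = 3.8e-04), plxnb2b (-1.87, SE 0.68, adjusted p = 0.032), nrp1a (-4.53, SE 0.97, adjusted p = 4.2e-05), efna1a (-7.14, SE 1.06, adjusted p = 6.2e-10), efnb3b (-2.29, SE 0.88, adjusted p = 0.048), ephb4a (-2.79, SE 0.89, adjusted p = 0.011), EPHB1 (-3.41, SE 1.18, adjusted p = 0.022), EPHA3 (-6.89, SE 1.26, adjusted p = 1.0e-06) and ephb2b (-4.09, SE 1.13, adjusted p = 0.0024). With 0 UMIs in leucophores, epha4a was at least 48.0-fold, efna3b at least 37.7-fold, sema3e at least 29.1-fold and sema3bl at least 24.0-fold lower than in fibroblasts. In this comparison the DESeq2 Wald test called EFNA5 alone higher and 11 members lower, without efna3b, sema3e, sema4ba, efnb3b and EPHB1. Leaving out fibroblasts with endothelial or osteoblast markers ended the calls of efnb3b (adjusted p = 0.27) and plxnb2b (adjusted p = 0.3). Against keratinocytes, the calls still to be named were efna1a (-6.63, SE 1.01, adjusted p = 5.5e-10) and EPHA3 (-4.68, SE 1.26, adjusted p = 7.9e-04), with epha4a at least 5.93-fold and sema3bl at least 24.2-fold lower at 0 UMIs in leucophores.

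Xanthophores were set against other classes within run 1 only. There is no test, and a member was counted where the ratio of sums was at least 2-fold with an exact 95% interval for counting error that left out 1, among features with at least 10 UMIs in both sums together. Where one sum held 0 UMIs the interval alone decided. Against leucophores, 6 members were higher and 5 lower of 33, beside 5.28% of features higher and 7.22% lower. Higher in xanthophores were plxna4, 24.0-fold (95% interval 4.29 to 947), sema4ba, 10.0-fold (95% interval 1.80 to 397), plxnb2b, 4.24-fold (95% interval 1.45 to 20.6), SEMA4F, 3.69-fold (95% interval 2.06 to 7.39), SEMA5B (ENSORLG00000009896), 2.33-fold (95% interval 1.22 to 5.11), and sema6e, 2.05-fold (95% interval 1.41 to 3.12). The first 3 rest on 1, 1 and 3 UMIs in leucophores, but the leucophores of run 2, at 9.55, 6.37 and 32.6 CPM, were also below the xanthophore values. Lower in xanthophores were efna1b, 14.9-fold (95% interval 7.02 to 29.0), EFNA5, 13.7-fold (95% interval 10.0 to 18.5), nrp2a, 6.20-fold (95% interval 2.2 to 14.2), sema6a, 4.44-fold (95% interval 2.55 to 7.25), and epha7, 3.61-fold (95% interval 1.30 to 8.11). sema3h, with 9 UMIs in both sums together, was under the limit, and its ratio was 138-fold (95% interval 29.6 to 856) lower. sema4c did not differ beyond counting error, with a ratio of 1.00 (95% interval 0.693 to 1.52), and neither did PLXNA2 (0.692, interval 0.440 to 1.15), NRP1 (1.64, interval 0.829 to 3.81) or efnb1 (1.22, interval 0.681 to 2.46).

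Against the other classes of run 1, xanthophores were higher in 25 and lower in 3 of 34 members than T cells (beside 28.0% and 17.7% of features), higher in 8 and lower in 25 of 46 than fibroblasts (11.7% and 18.5%), and higher in 21 and lower in 20 of 45 than keratinocytes (44.1% and 21.9%). The xanthophore sum held 9662388 UMIs and the keratinocyte sum 8687317.

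In iridophores against leucophores of run 1, 6 members were higher and 1 lower of 13, beside 17.6% and 12.2%. Higher were ephb3a and SEMA3C, 11.5-fold and 8.81-fold when set against 3 UMIs in leucophores, which held 0. These ratios leave out the counting error of the iridophore counts, so their intervals start lower. Also higher were nrp2a, 5.73-fold (95% interval 2.03 to 18.4), NRP1, 4.29-fold (95% interval 1.65 to 12), efnb1, 2.88-fold (95% interval 1.16 to 7.21), and EFNA5, 2.54-fold (95% interval 1.70 to 3.81). Lower was sema6e, 5.11-fold (95% interval 1.28 to 44.3). With looser gates 3 were higher and 0 lower, and with at least 2000 UMIs per cell 2 were higher and 1 lower. Looser gates left fewer iridophores, 14 with 28860 UMIs against 23 with 52809, and 175 cells of run 1 then passed several gates. The cut of 2000 UMIs also left 14 iridophores. In xanthophores against iridophores, 3 members were higher and 9 lower of 35, beside 2.69% and 7.49%. The higher were sema6e, 10.5-fold (95% interval 2.90 to 86.7), SEMA4F, 7.67-fold (95% interval 2.12 to 63.4), and plxnb2b, counted at 0 UMIs in iridophores, where its bound is 1.61-fold and its interval starts at 1.30, and the lower included sema3fa, 488-fold (95% interval 117 to 2855), ephb3a, 125-fold (95% interval 56.8 to 267), ephb4a, 80-fold (95% interval 27.8 to 206), nrp2a, 35.5-fold (95% interval 18.0 to 64.9), and SEMA3C, 15.9-fold (95% interval 7.43 to 30.3). Against fibroblasts of run 1, iridophores were higher in 9 and lower in 2 of 31 members, beside 12% and 10.4% of features. These counts were 6 and 1 with looser gates and 5 and 1 with at least 2000 UMIs per cell. Against keratinocytes iridophores were higher in 15 and lower in 5 of 38, beside 15.1% and 5.89%, and with looser gates higher in 10 and lower in 1.

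Melanophores rested on 8 cells of run 2, and their values are a description. The highest members were SEMA5B (ENSORLG00000009896) at 534 CPM (exact 95% interval 345 to 788), sema4c at 427 (261 to 659), sema4ba at 384 (228 to 607), NRP1 at 363 (211 to 581), sema6a at 342 (195 to 555), EPHA3 at 320.2 (179 to 528) and plxna4 at 320.2 (179 to 528). EPHA3 came from 5 of the 8 cells, sema6a from 5 and SEMA5B from 4. In the leucophores of the same run EPHA3 had 1 UMI and sema4ba 16. sema3b, a class 3 semaphorin, had 11 UMIs in melanophores, 7 of them in 1 cell, and 0 in leucophores.

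Shares of cells with a UMI were compared after thinning each cell to 1500 UMIs. EFNA5 was then seen in 47.1% and 47.9% of leucophores, 4.03% of xanthophores, 53.3% of iridophores and 61.1% and 36.4% of keratinocytes, against 0.685% and 0% of T cells. Without thinning the shares were 88.2% and 93.9%, 11.4%, 78.3%, and 81.3% and 79.5%, against 0.870% and 0%, at median depths of 7601 and 12422, 4656, 2340, 8711 and 15889, and 2880 and 4082 UMIs. sema4c was seen after thinning in 29.4% and 29.5% of leucophores and 25.0% of xanthophores, against 0.457% and 0% of T cells and 0.368% and 0.662% of keratinocytes. Thinning left out 8 of the 23 iridophores, 111 xanthophores, 0 and 7 leucophores, 22 and 3 T cells, and 14 and 0 keratinocytes.

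Within the epidermis, basal and superficial keratinocytes were gated apart, with 315 and 92 basal and 149 and 16 superficial cells. In this fit of 10 sums, 14 of 38 tested members were higher in basal cells and 3 lower, beside 7.50% of 9423 features higher and 8.76% lower, and the members' median log2 fold change was 2.23, against 0.11 over all features. Higher in basal cells were 6 of 16 tested semaphorins, 1 of 3 plexins (plxnb2b), 1 of 3 neuropilins (nrp1a), 2 of 6 ephrins (efna1b and efna3b) and 4 of 10 Eph receptors, and lower were 2 semaphorins and EFNA5. efna1b had 2215 and 2222 CPM in basal and 880.4 and 379 in superficial cells. EFNA5 had 782 and 323 CPM in basal and 1953 and 1607 in superficial cells. These ligands ran opposite ways in both runs, with log2 fold changes of 2.27 (SE 0.49, adjusted p = 5.2e-05) for efna1b and -1.53 (SE 0.48, adjusted p = 0.011) for EFNA5. Of the receptors, epha7 had 106 and 134 CPM in basal and 2.93 and 0 in superficial cells (5.62, SE 0.85, adjusted p = 1.4e-09), and EPHB3 had 167 and 172 CPM in basal and 40.3 and 0 in superficial cells (2.99, SE 0.64, adjusted p = 4.4e-05). epha2a did not differ beyond the spread, with 105 and 131 CPM in basal and 165 and 104 in superficial cells and a log2 fold change of 0.03 (SE 0.55, adjusted p = 1.00). The DESeq2 Wald test did not call efna1b (adjusted p = 0.054) or EPHB3 (adjusted p = 0.16).

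On the semaphorin side, sema6dl had 223 and 252 CPM in basal and 27.1 and 0 in superficial cells (3.99, SE 0.66, adjusted p = 3.3e-08). nrp1a had 102 and 247 CPM in basal and 6.60 and 0 in superficial cells (5.10, SE 0.77, adjusted p = 9.8e-10), and plxnb2b had 124 and 196 CPM in basal and 11 and 0 in superficial cells (4.25, SE 0.70, adjusted p = 3.1e-08). These 3 genes were higher in basal cells in both runs. sema3fa had 52.0 and 111 CPM in basal and 1.47 and 0 in superficial cells (5.95, SE 0.97, adjusted p = 2.6e-08), and sema3bl had 57.8 and 46.4 CPM in basal and 0.733 and 0 in superficial cells (6.51, SE 1.13, adjusted p = 2.1e-07). Less abundant genes were higher in basal cells too, namely efna3b at 14.5 and 28.9 against 0.733 and 0 CPM (5.05, SE 1.22, adjusted p = 4.4e-04), sema4e at 26.9 and 34.9 against 10.3 and 0 CPM (2.41, SE 0.82, adjusted p = 0.023) and sema5a at 7.73 and 13.3 against 0.733 and 0 CPM (3.91, SE 1.31, adjusted p = 0.021). Superficial cells held 0 UMIs of sema3ga, ephb4a and EPHB1, so basal cells were at least 5.69-fold, 3.27-fold and 3.16-fold higher. The DESeq2 Wald test called 6 members higher and 2 lower, with efna3b, sema4e and ephb4a among those it did not call (adjusted p = 0.47, 0.34 and 0.19), and it gave no adjusted p for EPHB1, sema5a and sema3ga.

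SEMA4F and SEMA4D were the semaphorins of the superficial side. SEMA4F had 0.619 and 0 CPM in basal and 23.5 and 32.9 in superficial cells (-5.55, SE 0.96, adjusted p = 1.6e-07), and SEMA4D had 1.55 and 1.20 CPM in basal and 16.1 and 11 in superficial cells (-3.13, SE 0.94, adjusted p = 0.0072). Of the 22 UMIs of SEMA4D in the superficial cells of run 1, 10 came from 1 cell, and the DESeq2 Wald test did not call SEMA4D (adjusted p = 0.067). The superficial sum of run 2 held 182297 UMIs in 16 cells, so a 0 there allows up to 16.5 CPM. cd74a, a marker shared with antigen-presenting cells, led the macrophage list in keratinocytes at 2302 and 2320 CPM, and that list summed to 2042 and 2234 CPM in basal and 3695 and 3582 CPM in superficial cells. Of other lists, the fibroblast list summed to 427.5 and 574 CPM in basal and 13.2 and 5.49 CPM in superficial cells, and the neutrophil list, led by mmp9, to 601 and 1187 CPM in basal and 57.9 and 0 CPM in superficial cells. The osteoblast list, led by runx2b, summed to 262 and 316 CPM in basal and 103 and 11 CPM in superficial cells. The part of these 4 lists in the layer differences was not tested.

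**Figure D4:**
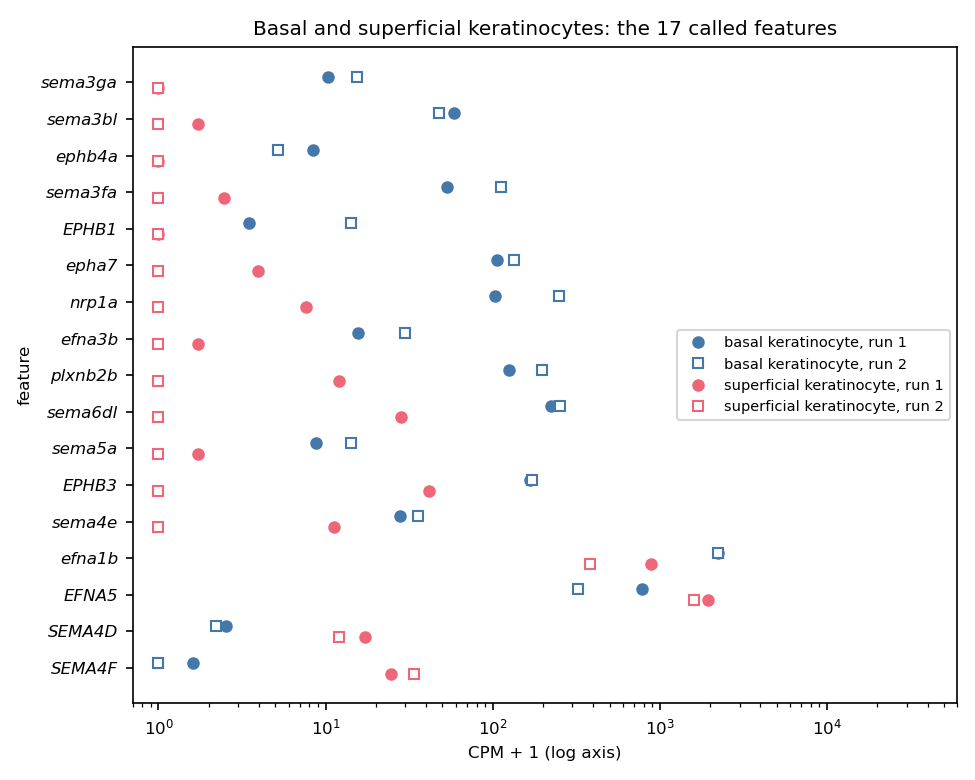
Points give CPM plus 1 on a log axis for the 17 members called between epidermal layers, with basal cells in blue above superficial cells in red, filled for run 1 and open for run 2. The blue points lie right of the red ones for the 14 members higher in basal cells, and left of them for EFNA5, SEMA4D and SEMA4F.

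Signalling partners were read from fixed lists, which were not tested as sets. Over all features, 17.1% were higher and 22.7% lower in leucophores against keratinocytes, 7.92% and 12.4% against fibroblasts, and 16.4% and 11.8% against T cells. In fibroblasts against keratinocytes the shares were 13.9% and 18.2%, in T cells against keratinocytes 15.6% and 24.8%, in T cells against fibroblasts 11.3% and 19.0%, and in basal against superficial cells 7.50% and 8.76%. The counts of all 3 lists are read against these shares. Levels in brackets are CPM in run 1 and run 2 of the class named first, against those of the class named second. Of 37 matched partners of semaphorin signalling, 22 were tested, and 5 were higher and 7 lower in leucophores against keratinocytes. The largest changes were in rnd2 (0 and 0.398 against 684 and 264), rnd1a (43.0 and 62.5 against 0 and 0) and dpysl2b (35.8 and 34.6 against 0.230 and 0). Rnd GTPases bind plexins, and dpysl2b belongs to the CRMP genes downstream of semaphorin 3A, so 2 related GTPase genes ran opposite ways. Leucophores were higher in 3 and lower in 5 partners against fibroblasts, led by rnd1a (43.0 and 62.5 against 0 and 0), kdrl (0 and 0.796 against 118 and 203) and MICALL1 (0 and 0 against 6.56 and 16.9), and higher in 8 and lower in 4 against T cells, led by MICALL1 (0 and 0 against 209 and 167), dpysl2b (35.8 and 34.6 against 0 and 0) and erbb2 (14.3 and 33.8 against 0 and 0). kdrl encodes a VEGF receptor and is also on the endothelial list. In fibroblasts MICALL1 rested on 3 and 1 UMIs, at or under the floors of 6.56 and 50.7 CPM. A 0 in the leucophores of run 1 allows 21.5 CPM, so the size of that change is not read. The fibroblast level of dpysl2b, named below against T cells, rested on 5 and 0 UMIs. A 0 in the T cells of run 2 allows 18.6 CPM, above the 8.21 CPM of erbb2 in keratinocytes, also named below. Fibroblasts were higher in 6 and lower in 5 partners against keratinocytes, led by kdrl (118 and 203 against 0.115 and 0.714), rnd2 (10.9 and 0 against 684 and 264) and fyna (37.2 and 33.8 against 0.576 and 0). T cells were higher in 5 and lower in 7 against keratinocytes, led by MICALL1 (209 and 167 against 0.230 and 0), rnd2 (2.83 and 0 against 684 and 264) and erbb2 (0 and 0 against 9.55 and 8.21), and higher in 4 and lower in 7 against fibroblasts, led by dpysl2b (0 and 0 against 10.9 and 0), MICALL1 and fes (36.8 and 68.2 against 2.19 and 0). In the epidermal layers 5 of 23 were higher in basal cells and 1 lower, led by rras (91.3 and 112 against 2.2 and 0), pak1 (1.86 and 0 against 22.7 and 38.4) and met (121 and 82.5 against 8.80 and 0), whose product associates with plexin-B receptors in mammals.

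Of 27 matched partners of Eph and ephrin signalling, 21 were tested, with 5 higher and 3 lower in leucophores against keratinocytes. The kinase feature src (21.5 and 14.7 against 901 and 982) and the second feature of that name, SRC (50.2 and 26.7 against 0.115 and 0.714), ran opposite ways, and VAV2 was lower in leucophores (0 and 1.19 against 18.1 and 32.5). Leucophores were higher in 3 and lower in 2 against fibroblasts, led by grip2a (57.3 and 39.8 against 0 and 0), VAV2 (0 and 1.19 against 85.3 and 152) and anks1b (172 and 197 against 10.9 and 33.8), and higher in 7 and lower in 5 against T cells, led by the phosphatase gene ptpn11b (0 and 6.37 against 259 and 223), nck2a (172 and 219.7 against 5.66 and 0) and grip2a (57.3 and 39.8 against 1.42 and 0). The GRIP protein family binds ephrin-B tails. For the layer change of grip2a given below, superficial cells held only 1 and 4 UMIs. A 0 in the fibroblasts of run 2 allows 50.7 CPM, above the 39.8 CPM of grip2a in leucophores there. Fibroblasts were higher in 2 and lower in 4 against keratinocytes, led by src (48.1 and 101 against 901 and 982), inppl1b (30.6 and 33.8 against 0.691 and 2.85) and nck2a (28.4 and 16.9 against 145 and 77.8). T cells were higher in 4 and lower in 6 against keratinocytes, led by src (4.95 and 0 against 901 and 982), vav3b (64.4 and 31.0 against 0.460 and 1.07) and ptpn11b (259 and 223 against 3.80 and 2.85), and higher in 4 and lower in 2 against fibroblasts, led by ptpn11b, vav3b and src (4.95 and 0 against 48.1 and 101). In the epidermal layers 3 of 22 were higher in basal cells and 2 lower, led by grip2a (0 and 0 against 0.733 and 21.9), anks1b (57.8 and 70.5 against 7.33 and 0) and rgs3a (127 and 182 against 33.7 and 38.4).

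Of 20 matched genes of other guidance systems, 12 were tested, with 3 higher and 3 lower in leucophores against keratinocytes. The ROBO ligand gene slit2 was lower (0 and 3.98 against 39.1 and 149), while the netrin receptor gene UNC5C (ENSORLG00000005617) (57.3 and 21.1 against 0.230 and 1.43) and rgmb, which encodes a neogenin ligand (172 and 197 against 5.41 and 6.78), were higher. Against fibroblasts 1 was higher and 7 lower in leucophores, led by ntn2 (0 and 0 against 96.3 and 50.7), slit3 (0 and 0.398 against 409 and 237) and the netrin receptor gene dcc (0 and 1.19 against 37.2 and 84.6). Against T cells 4 were higher and 1 lower in leucophores, led by rgmd (7.17 and 19.1 against 0 and 0), rgmb (172 and 197 against 2.83 and 0) and UNC5C. The rgmd level rested on 1 UMI in the leucophores of run 1. In run 2 a 0 in T cells allows 18.6 CPM, close to the 19.1 CPM of rgmd in leucophores. Fibroblasts were higher than keratinocytes in 7 of the 12, led by slit3 (409 and 237 against 1.84 and 0.357), UNC5C (74.4 and 50.7 against 0.230 and 1.43) and ntn2 (96.3 and 50.7 against 0.460 and 2.14). T cells were lower than fibroblasts in 11 of the 12, led by ntn2, rgmd (0 and 0 against 15.3 and 0) and UNC5C, and higher in 1 and lower in 4 against keratinocytes, led by slit2 (0.708 and 0 against 39.1 and 149), ROBO1 (2.12 and 0 against 24.1 and 63.2) and robo2 (0.708 and 0 against 4.95 and 13.9). For robo2 in run 2, a 0 in T cells allows 18.6 CPM, above the 13.9 CPM of keratinocytes. In the epidermal layers 5 were higher in basal cells, led by dcc (12.7 and 4.82 against 0 and 0), slit1a (4.33 and 12 against 0 and 0) and ROBO1 (54.1 and 97.6 against 1.47 and 5.49). A 0 in the superficial cells of run 2 allows 16.5 CPM, above the dcc and slit1a levels of basal cells there.

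Another 7 members did not reach 50 CPM in a sum of at least 10 cells and were not called. SEMA4G (ENSORLG00000011518), sema3d, plxna3 and efna2a reached at most 7.45, 15.7, 7.17 and 7.04 CPM in any sum of at least 10 cells, in xanthophores for all but plxna3, whose 7.17 CPM were 1 UMI in the leucophores of run 1. sema3b, beside its 11 UMIs in melanophores, reached 17.5 CPM in the fibroblasts of run 1. SEMA5B (ENSORLG00000006593) and sema7a, which encodes a lipid-anchored semaphorin, had 0 UMIs in all gated cells.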

How the data were processed

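Single cells of medaka skin and scales were measured by 10x 3′ sequencing in 2 libraries. The authors deposited UMI counts per gene and barcode, made with Cell Ranger 7.1.0 per the submitters' processing notes. Genome build and gene models: not given in the sources used here. Barcodes were kept at 500 UMIs, 300 genes and at most 20% of UMIs in 13 mitochondrial features, which left 4503 of 4702 and 577 of 614. Scrublet's own threshold (scanpy 1.11.5) marked 3 and 1 doublets, so the top 4% of scores, 156 and 21 cells, were removed.

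Gates were exclusive and used marker UMIs. They asked for 3 over 2 markers in leucophores and xanthophores, 4 over 3 in iridophores and 3 over 1 in melanophores and T cells. Fibroblasts needed 5 over 2 and keratinocytes 50 over 3. Leucophores and xanthophores also needed 3 UMIs of the pigment genes gch2, pax7a, slc2a15b and csf1ra. Every class other than keratinocytes was limited to cells with under 20 UMIs of the keratinocyte gate markers. Keratinocytes had to miss the marker cut-offs of all other classes. Basal and superficial cells needed 3 UMIs of their own layer markers and at most 1 of the other layer. Marker lists were fixed, but the genes of these lists that the gates read, and the thresholds, were set after marker values had been seen. The members and lists were chosen with earlier results of these data known. Counts were summed per class and run, and sums were tested where at least 10 cells remained. The fibroblast clean-up went below this limit, with 9 fibroblasts in run 2.

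Sums were tested with edgeR 4.0.16 (R 4.3.3; TMM, filterByExpr, quasi-likelihood F test with Benjamini-Hochberg adjustment) with the run as a block, since both sums of a pair come from 1 library. The epidermal layers were fitted the same way in 10 sums with 4 residual degrees of freedom. The scripts were first run on simulated counts with known changes. Ratios within run 1 carry exact conditional binomial intervals and single sums exact Poisson intervals, both at 95%. Members were named where they reached 50 CPM in a sum of at least 10 cells or were called, which gave 42, and partners where they were among the 3 largest called changes of their list. Alternatives were DESeq2 1.42.0, other scaling, no count filter, no block, other gates, doublets kept, 2000 UMIs per cell and single runs. Library totals and the fibroblast clean-up were added after seeing the data.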

Additional observations from a re-analysis of the deposited data

Results flagged for a closer look

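Cells that passed no gate were not used in the comparisons, and sema3aa was higher in those of run 2 than in any tested class. It stood at 148 CPM over the 144 such cells of run 2, with 147 UMIs in 17 cells, 115 of them in 1 cell. In run 1 the 902 cells without a gate held 89 UMIs of sema3aa in 33 cells, or 28.1 CPM, with at most 14 UMIs in 1 cell. In the gated classes sema3aa reached at most 21.9 CPM in a replicated class, the fibroblasts of run 1.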

How the results depend on the processing

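Over the 7 replicated comparisons, 156 changes of members were called. Median-of-ratios scaling in edgeR kept all 156 and library totals 152, while the DESeq2 Wald test kept 118, fitting without the count filter 134, looser gates 148 of 155 and stricter gates 138 of 145. Without the run block 149 were kept, with 11 higher and 20 lower in leucophores against keratinocytes, and no count moved by over 1.5 times. No called direction turned in any of these refits. Some counts moved by over 1.5 times. In leucophores against fibroblasts, 1 member was higher with DESeq2 and 2 without the filter. In leucophores against T cells, 0 were lower with DESeq2, 1 without the filter and 1 with stricter gates. In T cells against keratinocytes, 1 was higher with stricter gates. In T cells against fibroblasts, 1 was higher with looser gates and 1 without fibroblasts holding endothelial or osteoblast markers. In basal against superficial cells, 6 were higher with DESeq2, and 5 were lower with median-of-ratios scaling, 5 with library totals and 1 without the filter. In xanthophores against T cells of run 1, 5 were lower with doublets kept. In iridophores of run 1 against leucophores, 3 were higher and 0 lower with looser gates, 2 higher with 2000 UMIs per cell and 2 lower with stricter gates. Against keratinocytes 1 was lower with looser gates. Against fibroblasts 5 were higher and 1 lower with 2000 UMIs per cell and 1 lower with looser gates. A count of calls from 1 run alone could not be fitted, so runs were compared by log2 ratios of CPM plus 1. Run 2 alone turned nrp2a (0.18) and sema6a (-1.28) in T cells against keratinocytes, EPHB1 (1.92) in leucophores against T cells and EFNA5 (0.51) in leucophores against keratinocytes, and run 1 alone turned sema3ga (0.73) in leucophores against keratinocytes. SEMA5B (ENSORLG00000009896), not called in fibroblasts against keratinocytes, was higher with looser gates (2.35). The cause of these shifts was not tested. A count of 0 allows 64.0 CPM in melanophores, 56.8 in iridophores, 21.5 in leucophores of run 1, 18.6 in T cells of run 2 and 50.7 in fibroblasts of run 2.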
